A study of Mus musculus with 5 samples.

Results

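The genes described here encode the SR proteins (Srsf), the heterogeneous nuclear ribonucleoproteins or hnRNPs (Hnrnp), the SF3 subunits of the U2 snRNP, and SF1 and U2AF. All are splicing factors. They were chosen by name alone, as every gene whose current or older symbol in the array annotation begins with one of these family names. The choice gave 42 genes with 129 probe sets that name 1 gene, out of 45101 probe sets on the array. A probe set is a group of short oligonucleotides read together as 1 signal, and most of these genes have several. A further 9 probe sets name a splicing factor gene together with other genes. They were not assigned to a gene, and 4 rose in L-LY29, 4 fell and 1 did not pass. Of all tested probe sets 28.9% rose and 42.9% fell.

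Optic nerves of C57BL/6 mice aged P35 to P45 were kept in culture for 3 days in the presence of the PI3K inhibitor LY294002, at 0.5 µM (L-LY29, 3 arrays) or 50 µM (H-LY29, 2 arrays). The methods state that nerves were taken with the retina attached and give another L-LY29 dose for adult nerves than the labels do, and which applied was not settled here. The titles write LY294002 and the treatment entries LY295002. Untreated nerves are not analysed here, so every difference is L-LY29 minus H-LY29 in log2 units, and a positive one is higher in L-LY29. The paper gives numbers of nerves and mice used for its transcriptomic analysis, but no source used here says how many went into an array. The p-values therefore cover no more than array to array spread, which may be technical.

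Splicing removes introns in steps. SF1 binds the branch point and U2AF the polypyrimidine tract and the AG that follow it, after which the U2 snRNP takes the branch point through its SF3A and SF3B subunits. SR proteins mostly bind exons and favour their inclusion, and hnRNPs often oppose it, so the balance between the families shapes alternative splicing. In oligodendrocytes hnRNP A2 is also known for carrying myelin basic protein mRNA into the processes. Many transcripts of splicing factor genes are themselves alternatively spliced, so probe sets of a gene can read different transcripts. Which transcript each probe set reads was not settled here.

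Several features of the arrays moved with dose. Pearson correlations over all probe sets were 0.990 to 0.995 within a dose and 0.882 to 0.892 across doses. The bacterial poly-A control RNAs averaged 10.22 in L-LY29 against 3.17 in H-LY29. The 3′ minus 5′ difference of the actin control was 0.43 in L-LY29 against 0.92 in H-LY29, and that of Gapdh was −0.13 in L-LY29 against 0.69 in H-LY29, so signal near the 3′ end weighed more in H-LY29. The median signal was 5.33 to 5.35 on the L-LY29 arrays against 5.54 to 5.56 on the H-LY29 arrays. Mature oligodendrocyte markers averaged 12.49 to 12.57 over 8 genes in L-LY29 against 12.34 to 12.52 in H-LY29. Of these genes 5 were called higher and 3 lower. Oligodendrocyte progenitor markers were at 8.46 to 8.72 in L-LY29 against 8.72 to 9.08 in H-LY29. Microglia markers were at 9.30 to 9.38 in L-LY29 against 8.64 to 8.86 in H-LY29. Endothelial markers were at 7.08 to 7.49 in L-LY29 against 6.55 to 6.70 in H-LY29. Astrocyte markers were at 9.17 to 9.89 over 7 genes in L-LY29, against 11.03 to 11.11 in H-LY29, with 1 called higher and 4 lower. The 6 fibroblast and meningeal markers were at 7.52 to 8.23 in L-LY29, against 10.85 to 11.17 in H-LY29. Ocular surface epithelium markers, which the labelled tissue should lack, were at 7.61 to 10.39 over 8 genes in L-LY29, against 4.10 to 4.27 in H-LY29. Retinal neuron markers were at 4.47 to 4.79 in L-LY29 against 4.51 to 4.83 in H-LY29, with 5 of 8 under the filter on low signal. In whole nerves, fewer cells of a type and less RNA per cell cannot be told apart. The part of these shifts in the results below was not tested, and whatever else differed between the doses in preparation cannot be told apart from the dose.

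Splicing factor transcripts did not move as a block. Of 121 probe sets with enough signal to test, 51 rose in L-LY29, 38 fell and 32 did not pass. This is 73.6% called, where 71.8% of all tested probe sets were called (limma, Benjamini-Hochberg adjusted p under 0.05 over 27022 probe sets). Calls were higher in 42.1% of the splicing factor probe sets and in 28.9% of all probe sets, and lower in 31.4% and in 42.9%. These shares are not matched for signal, and 95 splicing factor probe sets were among the 9007 with the highest signals. Of these 95, 43.2% were higher and 30.5% lower, where 36.96% and 41.9% of the 9007 were. The gap in higher calls was thus smaller there. Of 17 at middle signals 8 were higher and 4 lower, and of 9 at the lowest 2 were higher and 5 lower. The median difference was 0.06 over the splicing factor probe sets and −0.18 over all. Under quantile normalization or equal array medians the median of all probe sets moved to 0.14 or 0.03, and 62 splicing factor probe sets were then higher and 30 lower under either, where 41.4% or 37.3% of all probe sets were higher and 33.3% or 36.8% lower. Of the 32 that did not pass, 4 had an unadjusted p under 0.05. The doses did not overlap in 103 of the 121, with L-LY29 above in 56 and below in 47, and this held for 81.3% of all tested probe sets.

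**Figure D1:**
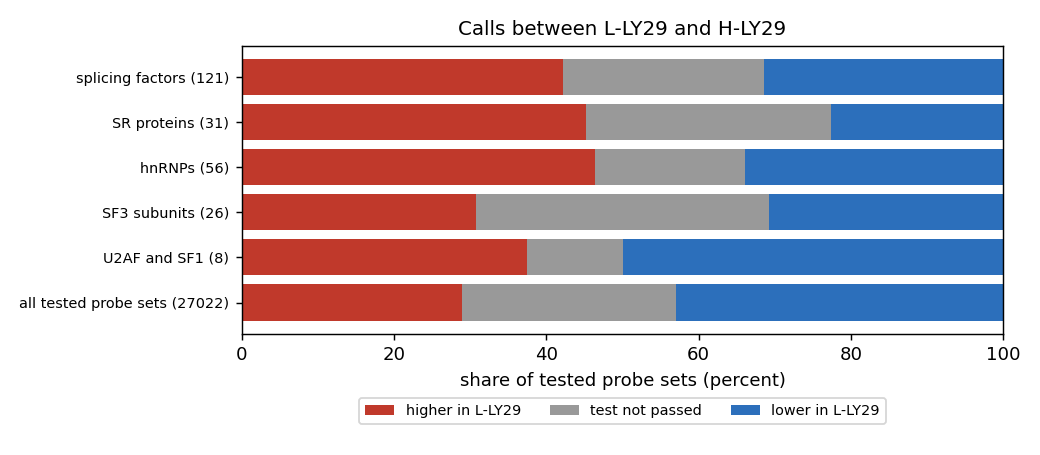
Share of tested probe sets (percent, x axis) called higher in L-LY29, not passed, or called lower, for all splicing factor probe sets, for each family and for all tested probe sets, with the number of probe sets in brackets. Higher calls make up 42.1% of the splicing factor bar and 28.9% of the bar for all probe sets. The bars are not matched for signal.

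By family, 14 of 31 SR protein probe sets were higher in L-LY29 and 7 lower, with a median difference of 0.15, which was 0.058 without H-LY29 replicate 2, 0.46 under quantile normalization and 0.36 with equal array medians. Among hnRNPs 26 of 56 were higher and 19 lower, with a median of 0.17. For SF3 subunits the count was 8 of 26 in each direction, and their median of −0.06 turned to 0.23 under quantile normalization and 0.15 with equal array medians, where 12 and 11 were higher and 5 lower under either. Of 8 probe sets of U2AF and SF1, 3 were higher and 4 lower. Their median of −0.23 was 0.0086 under quantile normalization, −0.02 with equal array medians and −0.55 with the probe sets ending in _s_at and _x_at left out, and −0.11 or −0.36 without H-LY29 replicate 1 or 2. With 1 value a gene, that of its brightest probe set (the one with the highest mean over the 5 arrays), 18 of 41 genes rose in L-LY29, 13 fell and 10 did not pass. Over all 12945 tested genes 27.0% were higher and 46.5% lower, 73.6% in all. The gene counts were 11 higher and 4 lower of 19 hnRNPs, 2 and 4 of 9 SR proteins, 3 and 3 of 9 SF3 subunits, and 2 and 2 of 4 for U2AF and SF1. With equal array medians 21 genes were higher and 9 lower. The SR protein counts were 3 higher and 3 lower with equal array medians, 4 and 2 with the probe sets ending in _s_at and _x_at left out, and 2 and 5 without H-LY29 replicate 2. Their gene median of −0.10 was −0.02 without H-LY29 replicate 1, −0.32 without H-LY29 replicate 2, 0.04 under quantile normalization, 0.11 with medians set equal, and 0.10 with the _s_at and _x_at probe sets left out.

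**Figure D2:**
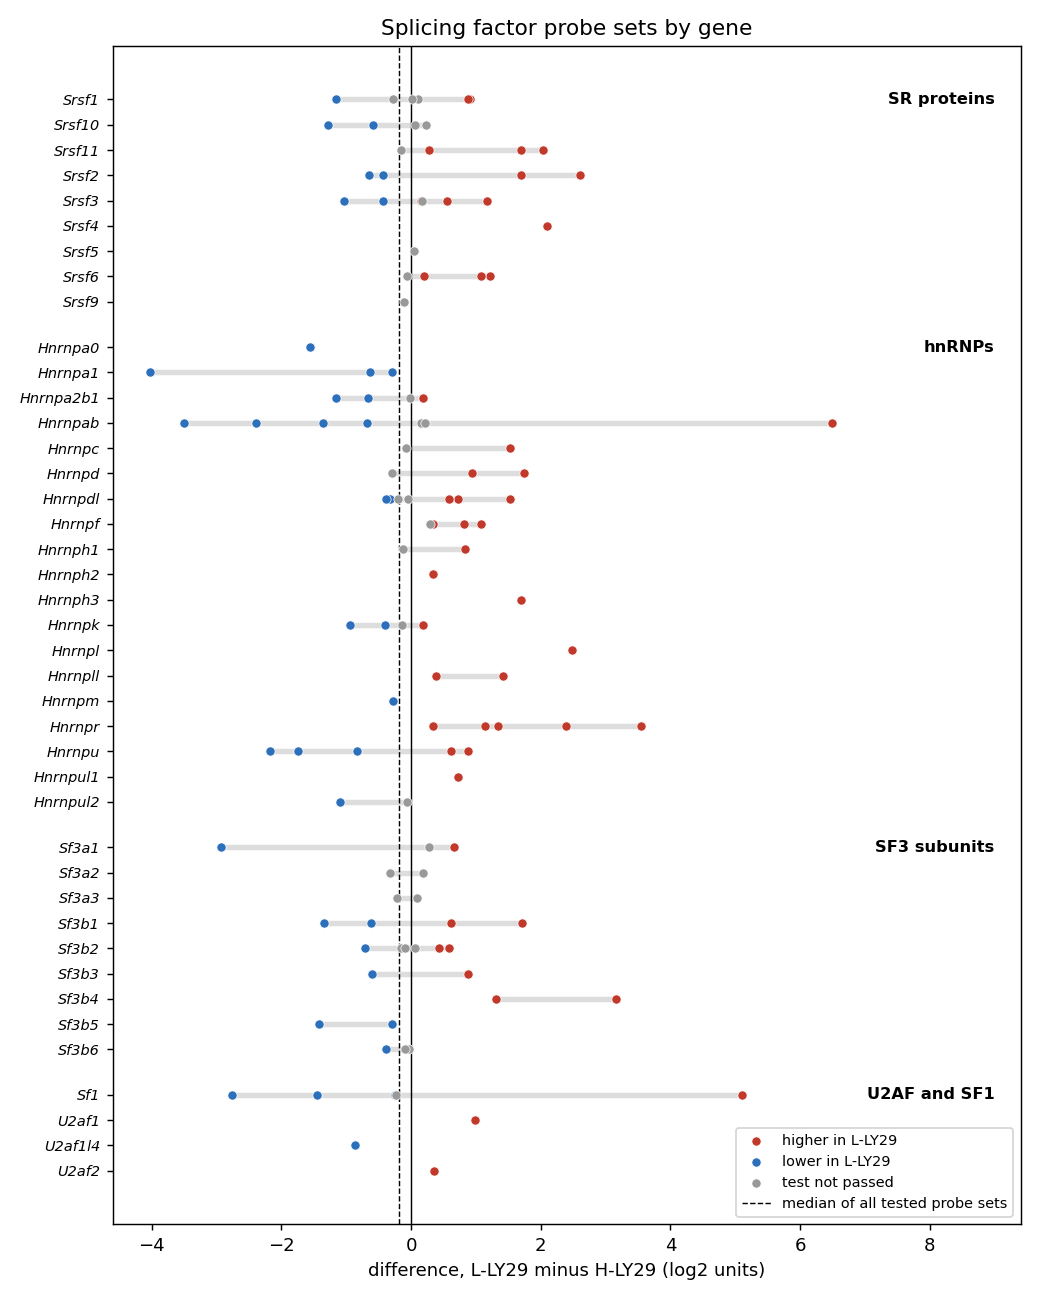
Difference, L-LY29 minus H-LY29 in log2 units (x axis), of every tested probe set, with 1 row for each of 41 genes. Grey bars span the probe sets of a gene, colours give the call, and the dashed line is the median of all tested probe sets at −0.18. Several genes have called probe sets on both sides of zero, and Hnrnpab reaches from −3.51 to 6.49.

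Among the SR proteins, Srsf4 and Srsf11 were higher in L-LY29. Srsf4, a large SR protein, has 1 probe set, which read 11.17, 11.15 and 11.13 in L-LY29 against 8.93 and 9.16 in H-LY29. The difference was 2.10 (SE 0.08, adjusted p = 5.34e-05, limma), and the L-LY29 arrays all lay far above both H-LY29 arrays. The brightest probe set of Srsf11, an SR protein that binds U2AF, read 11.05, 11.17 and 11.07 in L-LY29 against 8.94 and 9.20 in H-LY29, a difference of 2.03 (SE 0.10, adjusted p = 7.19e-05). Its probe set 1430077_at rose by 1.70, while 1427269_at read 8.21 to 8.23 in L-LY29 and 8.23 and 8.53 in H-LY29 and did not pass. Srsf6, which binds exonic enhancers, had 3 of 4 probe sets higher, by 0.21 to 1.21, and its brightest at −0.06 (adjusted p = 0.34). The smallest of those calls, 1416720_at, did not pass without any 1 of the L-LY29 arrays (adjusted p = 0.0631 to 0.0752), and neither did that of Srsf11 1439095_at, at 0.27 (0.0891 to 0.103). Srsf5 and Srsf9, with 1 probe set each, differed by 0.05 (adjusted p = 0.48) and −0.10 (0.50). Srsf12 had no probe set above the filter, at 4.12, 3.90 and 4.27 in L-LY29 against 4.27 and 4.47 in H-LY29.

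The best known SR proteins gave both directions. Srsf1, which helps define exons and also acts in translation, had its brightest probe set, 1453722_s_at, at 11.34, 11.39 and 11.29 in L-LY29 against 12.49 and 12.50 in H-LY29. This difference of −1.15 (SE 0.04, adjusted p = 5.19e-05) stood beside 0.88 (SE 0.07, adjusted p = 0.000239) for 1452430_s_at, which read 9.90, 9.94 and 9.82 in L-LY29 against 8.97 and 9.04 in H-LY29. Probe set 1430982_at rose by 0.91, and 3 others, at −0.27, 0.10 and 0.01, did not pass. Called probe sets of Srsf1 thus lay on both sides.

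Srsf2, a core SR protein of nuclear speckles, split evenly. Probe set 1427816_at read 7.51, 7.58 and 7.51 in L-LY29 against 4.64 and 5.21 in H-LY29, a difference of 2.61 (SE 0.19, adjusted p = 0.000206), and 1415807_s_at read 9.43, 9.59 and 9.55 in L-LY29 against 7.97 and 7.68 in H-LY29, a difference of 1.70. The brightest, 1452439_s_at, was lower, at 10.11, 10.27 and 10.25 in L-LY29 and 10.61 and 10.66 in H-LY29 (−0.43, SE 0.07, adjusted p = 0.00343), and 1427504_s_at fell by 0.64. In none of these 4 did the doses overlap.

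Srsf3, the smallest SR protein, had 2 probe sets lower, by 0.43 for the brightest (1416150_a_at, 11.43, 11.55 and 11.47 in L-LY29 against 11.85 and 11.97 in H-LY29, SE 0.06, adjusted p = 0.00223) and by 1.04 for 1416152_a_at. Another 3 were higher, among them 1438215_at at 8.29, 8.59 and 8.29 in L-LY29 against 7.32 and 7.09 in H-LY29 (1.18, SE 0.14, adjusted p = 0.00107). The call of 1454993_a_at, at 0.15, did not hold without any 1 of the L-LY29 arrays (adjusted p = 0.0879 to 0.125). Srsf10, a splicing repressor when dephosphorylated, had 2 of 4 probe sets lower. Its brightest read 9.69, 9.58 and 9.69 in L-LY29 against 10.02 and 10.45 in H-LY29 (−0.58, SE 0.14, adjusted p = 0.0145) and did not pass without the L-LY29 replicate 2 array (adjusted p = 0.0523), under quantile normalization (−0.36, adjusted p = 0.0738) or with equal array medians (−0.37, adjusted p = 0.0592), while 1449121_at differed by −1.28.

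Of the hnRNPs, Hnrnpr, which binds RNA in the nucleus and in neuronal processes, had all 5 of its tested probe sets higher, by 0.34 to 3.55. The brightest, 1427129_a_at, read 11.66, 11.76 and 11.72 in L-LY29 against 10.29 and 10.44 in H-LY29 (1.35, SE 0.06, adjusted p = 7.41e-05). Probe set 1438807_at read 7.83, 7.67 and 7.30 in L-LY29 against 4.33 and 3.77 in H-LY29 (3.55, SE 0.24, adjusted p = 0.000183), where its H-LY29 mean lay under 4.14, the highest mean of a bacterial poly-A probe set there. The smallest of the 5, 1452030_a_at, did not pass without H-LY29 replicate 1 (0.38, adjusted p = 0.0505) or 2 (0.29, adjusted p = 0.0818).

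Hnrnpa1, an abundant hnRNP that favours exon skipping, had all 3 of its probe sets lower. Probe set 1455740_at read 3.92, 4.05 and 3.35 in L-LY29 against 7.72 and 7.87 in H-LY29 (−4.02, SE 0.24, adjusted p = 0.00012), with its L-LY29 mean again under 4.14. The brightest, 1455305_x_at, read 10.68, 10.80 and 10.76 in L-LY29 against 11.60 and 11.15 in H-LY29 (−0.63, SE 0.14, adjusted p = 0.0113). The third, 1436549_a_at, at −0.30, did not pass without L-LY29 replicate 1, 2 or 3 (adjusted p = 0.124, 0.088 and 0.0904) or H-LY29 replicate 2 (−0.17, adjusted p = 0.218). Its call was also lost under quantile normalization (−0.17, adjusted p = 0.205), with equal array medians (−0.08, adjusted p = 0.488), with no filter (adjusted p = 0.0641) and without the trend in limma's variance prior (adjusted p = 0.0684).

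Of the splicing factor genes with at least 3 tested probe sets, Hnrnpr and Hnrnpa1 had all of them called one way. For this reason a promoter window of each is shown. This choice rested in part on calls that some alternatives lost, as given above, and 1455740_at of Hnrnpa1 passed the filter only through H-LY29, 1438807_at of Hnrnpr only through L-LY29. The sequences are from RefSeq on GRCm38.p6, run from 250 bases before to 50 after a gene start on the plus strand, and have each CG dinucleotide in capitals.
Hnrnpr, chr4:136310692-136310991: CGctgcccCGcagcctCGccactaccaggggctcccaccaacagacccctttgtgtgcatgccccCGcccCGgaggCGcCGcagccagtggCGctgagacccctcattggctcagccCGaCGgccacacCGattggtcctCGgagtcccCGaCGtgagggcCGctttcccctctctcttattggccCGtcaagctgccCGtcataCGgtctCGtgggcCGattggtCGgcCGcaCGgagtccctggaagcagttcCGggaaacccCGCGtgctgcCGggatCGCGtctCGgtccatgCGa
Hnrnpa1, chr15:103240147-103240446: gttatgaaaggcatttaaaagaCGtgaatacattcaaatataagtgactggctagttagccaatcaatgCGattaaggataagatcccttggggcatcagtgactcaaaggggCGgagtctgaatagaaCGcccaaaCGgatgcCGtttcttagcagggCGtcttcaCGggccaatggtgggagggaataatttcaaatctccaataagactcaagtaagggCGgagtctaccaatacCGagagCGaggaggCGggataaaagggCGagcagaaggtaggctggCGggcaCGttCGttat
The printed Hnrnpr window holds 31 CG dinucleotides and the Hnrnpa1 window 16. Another Hnrnpr window, from 136311348 to 136311647 on chromosome 4, is not printed and holds 33 CG and 72.33% G and C. RefSeq promoters matched 37 of the 42 genes with 51 windows, which held a median of 27 CG and 65% G and C. All 32851 promoters held 7 and 52.67%, and the 21263 of protein coding genes 13 and 56.33%. Of 4 motifs searched on both strands, the ETS motif CCGGAAG was in 31.37% of the splicing factor windows, 8.858% of all and 11.56% of protein coding ones. The E-box CACGTG was in 7.843% of the splicing factor windows and 7.15% of all, and TATAAA in 9.804% and 13.62%. The forkhead motif GTAAACA was in 1.961% of the splicing factor windows and 3.65% of all. None of the 4 was in either printed window.

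**Figure D3:**
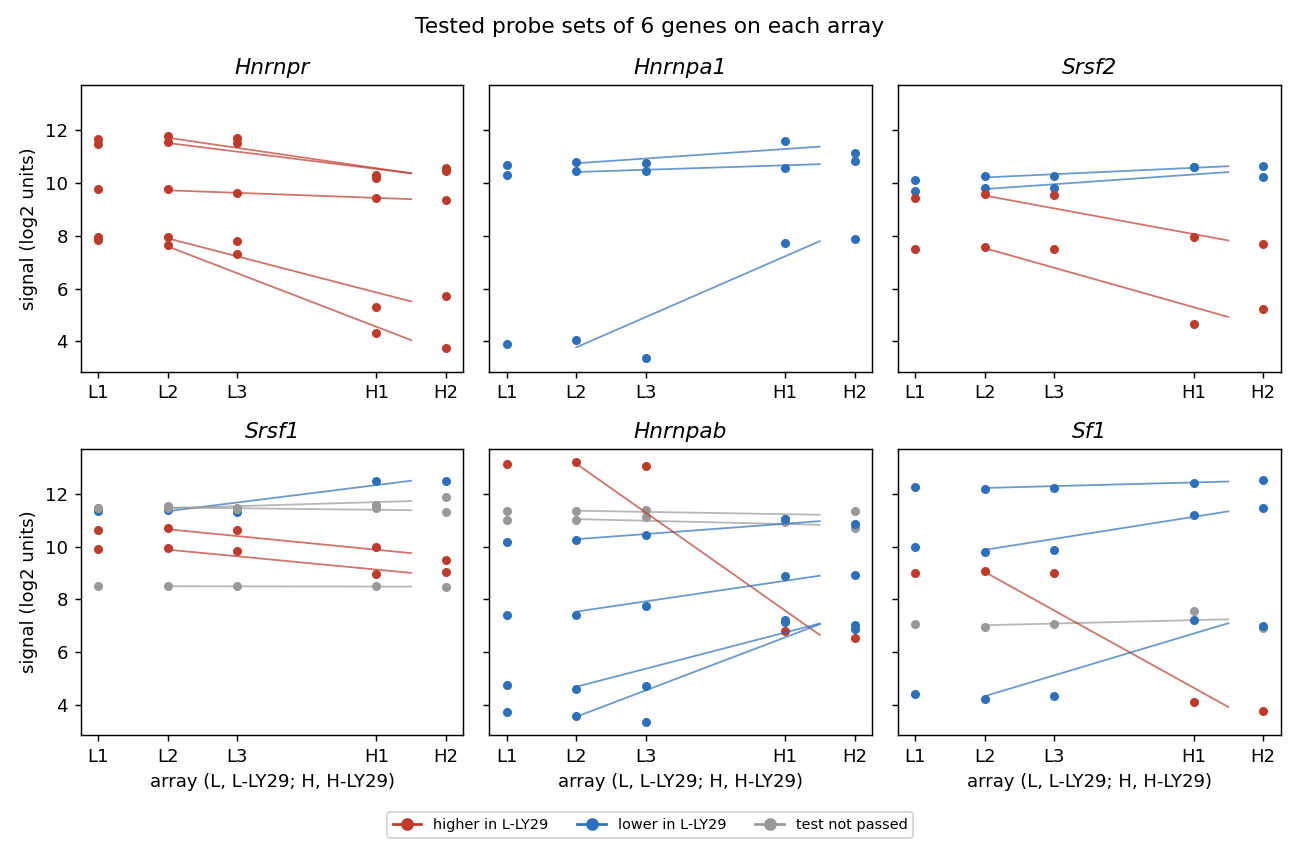
Signal in log2 units (y axis) of every tested probe set of 6 genes on each array (x axis, L-LY29 arrays L1 to L3, H-LY29 arrays H1 and H2). Points are single arrays, lines join the 2 dose means, and colours give the call. All Hnrnpr lines fall towards H-LY29, all Hnrnpa1 lines rise, and the other 4 genes hold both.

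Other hnRNPs with a higher brightest probe set included Hnrnpdl, Hnrnph3 and Hnrnpul1. Hnrnpdl, a relative of the AU-rich element binding protein Hnrnpd, read 12.57, 12.62 and 12.64 in L-LY29 against 11.09 and 11.07 in H-LY29 (1.53, SE 0.04, adjusted p = 3.90e-05), although 2 of its 7 probe sets were lower, by 0.32 and 0.39. Of these 1424252_at did not pass under quantile normalization (−0.15, adjusted p = 0.159) or with equal array medians (−0.11, adjusted p = 0.228). Nor did it with the replicate block (adjusted p = 0.0634). The other, 1456698_s_at, did not pass under quantile normalization (−0.14, adjusted p = 0.0971). Hnrnpdl 1428224_at, higher by 0.58, did not pass with no filter, with untrended eBayes or with the replicate block (adjusted p = 0.0508 to 0.0655). It also did not pass without any 1 of the L-LY29 arrays (adjusted p = 0.101 to 0.132). Hnrnph3, of the G-run binding H and F group, read 11.97, 12.07 and 11.87 in L-LY29 against 10.17 and 10.37 in H-LY29 (1.70, SE 0.09, adjusted p = 9.04e-05). In the same group Hnrnph1 differed by 0.83 in its brightest probe set and by −0.12, not passed, in 1437267_x_at. Hnrnph2 differed by 0.34 and the probe sets of Hnrnpf by 0.29 to 1.08, with 3 of the 4 called. The brightest of Hnrnpf, at 0.34, did not pass without any 1 of the L-LY29 arrays (adjusted p = 0.0728 to 0.0934). Hnrnpul1, related to the scaffold protein Hnrnpu, read 11.08, 11.10 and 11.08 in L-LY29 against 10.37 and 10.35 in H-LY29 (0.73, SE 0.04, adjusted p = 0.000109).

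The Hnrnpd gene itself, whose protein binds AU-rich mRNA, had 2 of 3 probe sets higher, by 0.94 and 1.75. Hnrnpc, which binds uridine tracts, read 12.51, 12.49 and 12.60 in L-LY29 against 10.89 and 11.14 in H-LY29 for its brightest probe set (1.52, SE 0.09, adjusted p = 0.000114), and −0.07 (adjusted p = 0.45) separated the doses for 1418693_at. Hnrnpl, which binds CA repeats, read 9.96, 10.01 and 9.94 in L-LY29 against 8.06 and 6.92 in H-LY29 (2.48, SE 0.34, adjusted p = 0.00179), with H-LY29 arrays further apart than for most genes. Its paralogue Hnrnpll, known for splicing of Ptprc in T cells, had both probe sets higher, by 1.42 and by 0.38, of which 0.38 did not pass without L-LY29 replicate 2 or 3 (adjusted p = 0.0598 and 0.0593).

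Lower hnRNPs included Hnrnpa0, which binds AU-rich mRNA and read 9.74, 9.81 and 9.98 in L-LY29 against 11.48 and 11.32 in H-LY29 (−1.56, SE 0.10, adjusted p = 0.000138). Hnrnpm read 10.05, 10.19 and 10.19 in L-LY29 against 10.43 and 10.41 in H-LY29 (−0.28, SE 0.06, adjusted p = 0.0130) and did not pass without H-LY29 replicate 1 or 2 (adjusted p = 0.0709 and 0.0597), under quantile normalization (−0.10, adjusted p = 0.223), with equal array medians (−0.06, adjusted p = 0.413) or with the replicate block (adjusted p = 0.0658). Hnrnpa2b1, the source of the myelin mRNA carrier hnRNP A2, had its brightest probe set at 11.80, 11.80 and 11.72 in L-LY29 against 11.64 and 11.93 in H-LY29, overlapping and not passed (−0.02, adjusted p = 0.89). Of its 3 others, 1433830_at and 1434047_x_at were lower, by 1.15 and 0.66, and 1420365_a_at was higher, by 0.19. This only higher call of Hnrnpa2b1 was lost with an untrended eBayes (adjusted p = 0.0514) and with the replicate block (adjusted p = 0.0867). Hnrnpk, a poly-C binding protein, had its brightest probe set overlapping and not passed (−0.14, adjusted p = 0.245). It was lower in 1448176_a_at, by 0.94, and 1423684_at, by 0.40. Its 1454692_x_at, at 0.19, was called higher but not without any 1 of the L-LY29 arrays (adjusted p = 0.105 to 0.123).

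Probe sets also disagreed in Hnrnpab, an AU-rich and single-stranded nucleic acid binder. Probe set 1426114_at read 13.14, 13.22 and 13.07 in L-LY29 against 6.79 and 6.52 in H-LY29, a difference of 6.49 (SE 0.10, adjusted p = 3.90e-05). Probe set 1431349_at went the other way, at 3.73, 3.60 and 3.34 in L-LY29 against 7.24 and 6.89 in H-LY29 (−3.51, SE 0.17, adjusted p = 8.32e-05), and 3 more were lower, by 0.68, 1.36 and 2.40. The 2 brightest, at 0.15 and 0.22, did not pass. The L-LY29 mean of 1431349_at lay under 4.14, and it passed the filter only through H-LY29. So did 1459880_at, whose L-LY29 mean was 4.69. Without H-LY29 replicate 1 or 2 the brightest probe set of Hnrnpab became 1426114_at, at 6.62 or 6.35.

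Hnrnpu, a nuclear scaffold protein, was lower in its brightest probe set, at 11.21, 11.17 and 11.24 in L-LY29 against 12.03 and 12.05 in H-LY29 (−0.83, SE 0.04, adjusted p = 8.32e-05). Probe sets 1434391_at and 1434390_at were lower too, by 1.74 and 2.18. Yet 1423051_at was higher, at 11.47, 11.59 and 11.50 in L-LY29 against 10.84 and 10.96 in H-LY29 (0.61, SE 0.06, adjusted p = 0.000626), as was 1450849_at, by 0.88. Its relative Hnrnpul2 had 1 of 2 probe sets lower, by 1.09.

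Among the factors that first mark the 3′ splice site, both U2AF subunits were higher. U2af1, which reads the AG, was at 11.93, 11.98 and 11.79 in L-LY29 against 10.80 and 11.02 in H-LY29 (0.99, SE 0.09, adjusted p = 0.000486). U2af2, which binds the polypyrimidine tract, was at 10.62, 10.64 and 10.62 in L-LY29 against 10.31 and 10.25 in H-LY29 (0.35, SE 0.05, adjusted p = 0.00171). U2af1l4, a paralogue of U2af1, was lower, at 8.32, 8.36 and 8.41 in L-LY29 against 9.14 and 9.32 in H-LY29 (−0.87, SE 0.09, adjusted p = 0.000564).

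Sf1, the branch point binding protein, also had calls in both directions. Its probe set 1459766_x_at read 9.02, 9.08 and 9.02 in L-LY29 against 4.10 and 3.76 in H-LY29 (5.11, SE 0.13, adjusted p = 3.90e-05), with an H-LY29 mean under 4.14. It passed the filter only through L-LY29, and no other probe set of Sf1 was called higher. Probe set 1423751_at read 4.44, 4.25 and 4.33 in L-LY29 against 7.21 and 6.99 in H-LY29 (−2.76, SE 0.12, adjusted p = 6.22e-05) and passed the filter only through H-LY29, and 1423750_a_at fell by 1.46. The brightest, 1459765_s_at, read 12.24, 12.20 and 12.23 in L-LY29 against 12.40 and 12.53 in H-LY29 (−0.24, SE 0.05, adjusted p = 0.00908), and with equal array medians this call was lost (−0.03, adjusted p = 0.65).

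SF3 subunits were mixed within both complexes. In SF3B, Sf3b4 was higher in both probe sets, with 10.19, 10.18 and 10.29 in L-LY29 against 9.01 and 8.80 in H-LY29 for the brightest (1.31, SE 0.09, adjusted p = 0.000163) and a difference of 3.17 for 1436784_x_at. Sf3b5, a small subunit, was lower in both tested probe sets, with 10.65, 10.61 and 10.72 in L-LY29 against 12.21 and 11.95 in H-LY29 for the brightest (−1.42, SE 0.09, adjusted p = 0.000143) and −0.29 for the other, 1451185_at, whose call was lost under quantile normalization (−0.15, adjusted p = 0.0709) and with equal array medians (−0.08, adjusted p = 0.260). Sf3b1, the large subunit that clamps the branch point helix, split. It read 11.37, 11.32 and 11.29 in L-LY29 against 10.66 and 10.77 in H-LY29 in its brightest probe set (0.61, SE 0.06, adjusted p = 0.000456) and was 1.71 higher in 1418562_at.

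The other 2 Sf3b1 probe sets were lower. Probe set 1440818_s_at read 9.34, 9.34 and 9.25 in L-LY29 against 10.54 and 10.77 in H-LY29 (−1.34, SE 0.09, adjusted p = 0.000153). The other, 1418561_at, at −0.61, did not pass without L-LY29 replicate 1, with no filter or with the replicate block (adjusted p = 0.0611, 0.0530 and 0.0515). Its call was also lost under quantile normalization (−0.19, adjusted p = 0.394) and with equal array medians (−0.40, adjusted p = 0.0978). It was lost too without H-LY29 replicate 1 or 2, where the difference was −0.54 or −0.68. Sf3b3 was lower in its brightest probe set, at 9.38, 9.62 and 9.62 in L-LY29 against 10.28 and 10.01 in H-LY29 (−0.61, SE 0.12, adjusted p = 0.00749), and 0.89 higher in 1430075_at. Neither passed without H-LY29 replicate 1 (adjusted p = 0.0669 and 0.0545). Sf3b6, which contacts the branch point adenosine, read 10.65, 10.57 and 10.67 in L-LY29 against 11.20 and 10.84 in H-LY29 (−0.39, SE 0.12, adjusted p = 0.0297), a call lost without any 1 L-LY29 array or without H-LY29 replicate 1 (adjusted p = 0.0599 to 0.0915), under quantile normalization (−0.30, adjusted p = 0.0678) and with equal array medians (−0.18, adjusted p = 0.190). The other tested probe sets of Sf3b6, at −0.03 and −0.09, did not pass. Sf3b2 had 2 of 6 tested probe sets higher, by 0.43 and 0.59, and 1 lower, by 0.71.

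In SF3A, Sf3a1 was higher in its brightest probe set, at 9.01, 8.88 and 8.89 in L-LY29 against 8.17 and 8.34 in H-LY29 (0.67, SE 0.09, adjusted p = 0.00162). Its 1419087_s_at was lower, at 5.42, 5.04 and 5.23 in L-LY29 against 7.75 and 8.56 in H-LY29 (−2.93, SE 0.27, adjusted p = 0.000474). Sf3a2 and Sf3a3 had differences of −0.32 to 0.18, none of which passed.

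The direction of a splicing factor gene could depend on the probe set read. In 23 genes 2 or more probe sets were called, and 13 of these had calls in both directions, 7 were all higher and 3 all lower. Over all genes 1812 of 4183, or 43.3%, had both. With the probe sets ending in _s_at and _x_at left out, 7 of 17 splicing factor genes had both, or 41.2%, where 44.6% of all genes did. Splicing factor genes with at least 2 tested probe sets had 3.76 of them on average, and all such genes 2.72. The 13 were 5 of 10 hnRNPs, 4 of 6 SF3 subunits, 3 of 6 SR proteins and Sf1. The SD of differences within a gene was 1.45 over the 29 splicing factor genes with at least 2 tested probe sets, and the SD of their gene means was 0.78. Over all such genes these were 1.24 and 1.09. The median range within a gene was 1.60 for splicing factors and 1.48 for all.

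Taking each probe set minus the brightest of its gene on the same array cancels a shift common to all probe sets of that array. Of 80 such pairs, 66 changed unequally between the doses, which is 82.5%, where 77.8% of the 10528 pairs of all genes did (limma, adjusted p under 0.05). In 34 of the 66 the other probe set was relatively higher in L-LY29 and in 32 relatively lower. All 29 genes had at least 1 called pair, as did 85.4% of all genes with a pair, and the median size was 1.02 for splicing factors and 1.04 for all. The share and the sizes were thus near those of all genes. A shift that differs between probe sets, such as the 3′ one given above, is not cancelled, and its part was not tested.

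Within arrays, 1426114_at of Hnrnpab minus its brightest was 1.79, 1.87 and 1.69 in L-LY29 against −4.27 and −4.83 in H-LY29, a change of 6.33 (SE 0.18, adjusted p = 8.58e-06). For 1427816_at of Srsf2 it was −2.60, −2.69 and −2.74 in L-LY29 against −5.97 and −5.45 in H-LY29, a change of 3.03 (SE 0.19, adjusted p = 3.27e-05). For 1419087_s_at of Sf3a1 it was −3.59, −3.84 and −3.66 in L-LY29 against −0.42 and 0.22 in H-LY29, a change of −3.59 (SE 0.21, adjusted p = 2.99e-05). In each of these the doses were far apart relative to the spread between arrays.

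The suffix of a probe set marks its kind. Those ending in _at, designed for 1 transcript, were higher in 32 and lower in 18 of 62. Those ending in _a_at, which match several transcripts of a gene, were higher in 8 and lower in 7 of 26. Those ending in _s_at, shared between transcripts that may come from different genes, were higher in 5 and lower in 10 of 18, and those ending in _x_at, which can cross-hybridise, higher in 6 and lower in 3 of 15. Over all 1711 _s_at probe sets 26.6% were higher and 49.3% lower, over all _a_at probe sets 35.2% and 37.2%, over all 1682 _x_at probe sets 591 were higher and 673 lower, and over all 20018 _at probe sets 27.5% were higher and 43.7% lower. A difference between kinds was not tested. How much signal the last kinds take from related genes was not tested.

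Among other splicing genes, taken from 7 lists of snRNP proteins, step factors, exon junction proteins, SR kinases and regulators, 49 of 148 were higher in L-LY29 and 68 lower, or 33.1% and 45.9%, with a median of −0.19. Over all tested genes 27.0% were higher and 46.5% lower, with a median of −0.26, and each list count below stands against this background. The snRNP core of U1, U2 and the Sm ring had 2 higher and 5 lower of 10, with Snrpd3, an Sm ring protein, at 10.46, 10.52 and 10.45 in L-LY29 against 12.20 and 12.15 in H-LY29 (−1.70, SE 0.05, adjusted p = 3.90e-05). The tri-snRNP had 10 higher and 12 lower of 24. Its Txnl4a, a small U5 protein, differed by 1.34 and its GTPase Eftud2 by −1.40, with 2 other Eftud2 probe sets called the other way. Of 33 PRP19 complex and step factors 8 were higher, among them Syf2 (0.94), and 13 lower, among them the helicase Ddx42 (−2.11). Exon junction proteins were higher in 2 and lower in 2 of 8, with Pnn at 1.60 and Casc3 at −1.23.

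Kinases and phosphatases of SR proteins were higher in 2 and lower in 6 of 11, beside 27.0% and 46.5% of all genes. Dyrk1a, which phosphorylates splicing factors, read 7.05, 7.34 and 7.20 in L-LY29 against 11.34 and 11.54 in H-LY29 (−4.24, SE 0.12, adjusted p = 3.95e-05). The SR kinases Srpk1 and Srpk2 went opposite ways, with −2.21 for Srpk1 and 1.73 for Srpk2, of which 2 other probe sets were called lower. SR-related proteins outside the named families were higher in 9 and lower in 9 of 23, with Srrm2, a speckle scaffold, at 2.17 and Tra2b at 0.80, each with at least 1 other probe set called lower. Other regulators were higher in 16 and lower in 22 of 40, or 40% and 55%. The epithelial factor Esrp2 read 4.66, 5.25 and 4.88 in L-LY29 against 10.14 and 10.21 in H-LY29 (−5.24, SE 0.19, adjusted p = 4.89e-05), lower in the dose in which ocular surface markers were high. Khdrbs3, of the STAR family, was 2.60 higher.

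The spread between arrays was small beside these differences. The median SD of the splicing factor probe sets was 0.058 in L-LY29 against 0.142 in H-LY29. Over all tested probe sets it was 0.101 in L-LY29 against 0.140 in H-LY29. Identical values on at least 2 L-LY29 arrays occurred in 46 of the 129 probe sets, on all 3 in 2, and on both H-LY29 arrays in 1. Such ties lower the SD in L-LY29. Some values were also equal across doses, such as 10.39 for Srsf6 1416721_s_at on L-LY29 replicates 2 and 3 and H-LY29 replicate 2. In 11 of the 129 the mean of a dose lay under 4.14.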

How the data were processed

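RNA signals came from Affymetrix GeneChip arrays of the mouse genome. The authors read the images in GeneChip Operating Software and normalised with MAS-5 in GeneSpring. The deposited values are log2 signals, taken here without further normalization, and their scaling target is not stated in any source read. Gene names came from the platform annotation and RefSeq (GRCm38.p6). The 64 control probe sets were left out. So were those averaging below 4.76, the 40th percentile. Doses were compared with limma 3.58.1 (R 4.3.3), two-sided, using lmFit and a trended eBayes, and within-gene pairs were fitted in the same way. Precision is limited by how few arrays there are.

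The members and lists were chosen with earlier results of these data known. The rule for named genes gave full values for up to 4 genes per family and direction with the smallest adjusted p, probe sets of up to 8 genes with both directions and the widest range, and up to 3 genes of each related list. Values of some members outside it were chosen after being seen. The scripts were tested on simulated data. Alternatives were to drop the filter or raise it to the 60th percentile, to set a floor at the 10th or 30th, quantile normalization, equal array medians, an untrended eBayes, a replicate block, leaving out each array, leaving out _s_at and _x_at probe sets, averaging the probe sets of a gene, and using only the second brightest one.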

Additional observations from a re-analysis of the deposited data

How the results depend on the processing

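The number of arrays, 3 and 2, limits every test. No called probe set of the 89 turned its direction under any alternative, and 69 stayed called under all but the replicate block. Without _s_at and _x_at probe sets, 7 of 17 genes were called in both directions, where 44.6% of all genes were. Of 88 splicing factor probe sets 40 were then higher and 25 lower, where 28.6% of all were higher and 42.6% lower. Of 47 pairs 39 were unequal, where 77.9% of all pairs were. With the second brightest probe set alone 23 pairs of 29 were unequal, where 77.4% of all such pairs were. Sf1 1422321_a_at, not called, was −0.23 and turned to 0.31 under quantile normalization, and it ranged from −0.54 to 0.0874 with 1 H-LY29 array left out, 0.0874 without H-LY29 replicate 1. Leaving out 1 L-LY29 array gave 44 to 45 higher and 35 to 36 lower probe sets. Of all probe sets 24.7% to 25.3% were then higher and 39.96% to 40.58% lower. In these runs 16 to 17 genes were higher and 12 to 13 lower. In each, 12 genes had both directions, where 39.9% to 40.1% of all genes did. Unequal pairs numbered 62 to 63 of 80, where 72.3% to 72.9% of all pairs were unequal. Over the related lists 42 to 43 genes were higher. No share of all genes is given for the higher and lower gene counts. Without H-LY29 replicate 1 or 2 the median difference was 0.065 or 0.060, against −0.108 or −0.120 over all probe sets. The cause of these changes was not tested beyond the fewer probe sets or arrays that each alternative uses.

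The labels number the arrays, but deviations of same-numbered arrays correlated at 0.02 and 0.05, so the numbers were not taken to pair them. With the replicate block 45 probe sets were higher, 34 lower and 60 pairs unequal, 18 genes were higher and 11 lower, and 79 of the 89 calls held. Of all probe sets 24.8% were then higher and 38.5% lower, and 72.5% of all pairs were unequal. A further 12 genes match the naming rule only through an older name in RefSeq, and this set was chosen after seeing the data. Of these 3 were higher, 5 lower and 4 did not pass, where 27.0% of all tested genes were higher and 46.5% lower. They include Tra2b, which is also counted among the SR-related proteins above.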
